A study of Mus musculus with 15 samples.

Results

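The genes that write and remove cytosine methylation were followed in mouse foetal gonocytes, the male germ cells that acquire most of their DNA methylation before birth. They comprised the de novo group *Dnmt3a*, *Dnmt3b*, *Dnmt3c* and *Dnmt3l*, the maintenance pair *Dnmt1* and *Uhrf1*, the dioxygenase genes *Tet1*, *Tet2* and *Tet3*, and the histone demethylase gene *Kdm1b*. These 10 genes were chosen by name for their known roles out of 54838 gene identifiers in the count tables. Earlier results of these data were known when they were chosen. All 10 are reported whatever their values, and all 10 passed the filter on low counts. RNA-seq counts were available for 6 libraries from E16.5 foetal testes, 3 control and 3 lacking *Tex15*, the gene of a nuclear protein associated with the PIWI protein MIWI2. Control embryos were Tex15+/-; Miwi2 tdTom/+ and knockout embryos were Tex15-/-; Miwi2 tdTom/+, on a background labelled mixed B6CBAF1/Crl; C57BL/6N. Every library therefore carried 1 copy of the tdTomato reporter allele of *Miwi2*, and its fluorescence was the marker by which the cells were sorted. The controls had already lost 1 functional copy of *Tex15*, and the null allele was a CRISPR/Cas9 insertion with stop codons in an early coding exon, in a line bred from 1 founder. The labels do not state whether the libraries of a group came from separate embryos, so the spread between replicates may be partly technical.

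DNMT3A, DNMT3B and DNMT3C place methyl groups on cytosines that carried none, and DNMT3L, which has no catalytic activity of its own, binds and stimulates them. DNMT1, guided by UHRF1 to hemimethylated DNA, copies the existing pattern at replication, whereas the TET enzymes oxidise 5-methylcytosine and so start its removal. KDM1B (LSD2) removes methyl groups from lysine 4 of histone H3, a mark that repels the DNMT3 proteins, and it is known for its role in setting maternal imprints in the oocyte. DNMT3C arose in rodents from a duplication of *Dnmt3b*, and in male germ cells it methylates the promoters of evolutionarily young retrotransposons.

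The likeness of these 2 neighbouring genes bears on how their transcripts can be counted, so stretches of both coding sequences are shown. *Dnmt3b* (ENSMUSG00000027478, chr2:153649450-153687730, plus strand of GRCm38) lies just upstream of *Dnmt3c* (ENSMUSG00000082079, chr2:153696652-153729907, plus strand). Their coding sequences were identical at 1968 of 2194 aligned bases (89.7%), compared with 1331 of 1761 (75.6%) for *Dnmt3c* against *Dnmt3a*. Aligned stretches of 75 bases, the length of a read before 3 bases were trimmed, could be compared within single exons at 703 positions. Of these, 130 (18.5%) were identical, the median stretch had 2 differences, and the most divergent had 21. An identical stretch lay in exon 10 of *Dnmt3c* (chr2:153716879-153716953) and in exon 14 of *Dnmt3b* (chr2:153674382-153674456), and a read within it matches both genes, so that its pair can be assigned only where the mate falls on a stretch that differs. It is printed 5′ to 3′ from the GENCODE transcripts:

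Dnmt3c exon 10: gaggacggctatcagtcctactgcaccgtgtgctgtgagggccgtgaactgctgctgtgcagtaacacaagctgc

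Dnmt3b exon 14: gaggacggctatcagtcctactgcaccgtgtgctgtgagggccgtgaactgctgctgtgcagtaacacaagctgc

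The most divergent stretch lay in exon 15 of *Dnmt3c* (chr2:153720398-153720472) and exon 19 of *Dnmt3b* (chr2:153677554-153677628), and reads from it separate the genes readily. Capitals mark the 21 bases that differ:

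Dnmt3c exon 15: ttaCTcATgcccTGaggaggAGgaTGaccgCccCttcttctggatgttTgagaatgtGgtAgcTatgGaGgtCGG

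Dnmt3b exon 19: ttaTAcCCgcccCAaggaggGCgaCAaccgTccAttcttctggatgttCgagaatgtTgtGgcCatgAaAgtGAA

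Over whole transcripts, 328 of 2149 windows of 75 bases in *Dnmt3c* (15.3%) also occurred in *Dnmt3b* transcripts, where they made up 328 of 5317 windows (6.17%). *Uhrf1* shared 398 of 4398 windows (9.05%) with *Gm5648*, a gene with at most 1 count in any library. For *Tet1* the shared windows were 44 of 15656 (0.281%), and the other members shared none on their own strand. *Kdm1b* overlapped the oppositely oriented gene *Dek* over 505 bases, 9.19% of its exonic length, and *Dek* held 463 to 842 counts per library. The strand setting of the counting was not given in the sources used here, so reads in that overlap cannot be assigned with certainty. The levels of *Dnmt3b*, *Dnmt3c*, *Uhrf1* and *Kdm1b* carry these limits in all that follows.

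The libraries held 4893265 to 5697020 reads counted on genes, and levels between libraries are given in CPM, the read count scaled to one common library size. *Tex15* itself stood at 1509, 1667 and 1664 CPM in controls and at 469, 230.2 and 249 CPM in the knockouts, a log2 fold change of -2.35 (SE 0.229). Its adjusted p of 0.0112 in edgeR's quasi-likelihood test missed the threshold of 0.01 by which a gene was called here, although the groups were far apart, and was 7.23e-08 in DESeq2. The germ cell markers summed to between 2215 and 2309 CPM in controls and between 2126 and 2276 CPM in knockouts, but 2 of the 6 tested, *Dazl* and *Nanos3*, had every knockout below every control, against 6.68% of all genes. *Dazl*, the only one with an unadjusted p under 0.05, stood at 292, 276 and 255 CPM in controls and at 238, 204 and 236 CPM in knockouts. *Nanos2*, a defining gene of foetal male germ cells, had only 2 to 11 counts per library. Transcripts of the testicular soma were high in knockout libraries 2 and 3 and at the control level in knockout library 1. The summed Leydig markers reached 17.9 to 60.0 CPM in controls and 34.7, 552 and 170.3 CPM in knockouts 1, 2 and 3, and the interstitial markers 41.4 to 50.7 CPM against 44.1, 859.9 and 218 CPM. Sertoli markers followed the same course, from 12.9 to 14.7 CPM in controls to 12.6, 111 and 74.0 CPM. Endothelial markers stood at 55.5 to 56.7 CPM in controls and at 42.7, 202 and 55.2 CPM in knockouts, and blood markers at 8.30 to 8.98 CPM against 7.41, 26.2 and 33.7 CPM. All 17 somatic and blood markers that could be tested, of 26 listed, had a log2 fold change above 0, against 50.0% of all genes. Of these markers 12 had an unadjusted p under 0.05, against 6.05% of all genes with one and a higher level, and 0 were called. *Insl3* and *Hba-a1* were at 0 in all controls and in knockout library 1. The share of uniquely aligned reads for which the counting found no gene was 34.9% to 39.8% in the controls and knockout library 1. It was 21.2% and 28.6% in knockout libraries 2 and 3. As the strand setting was not given, this share may include reads opposite to annotated exons. In such bulk samples a smaller number of cells of a type and a smaller amount of RNA per cell cannot be told apart.

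**Figure D1:**
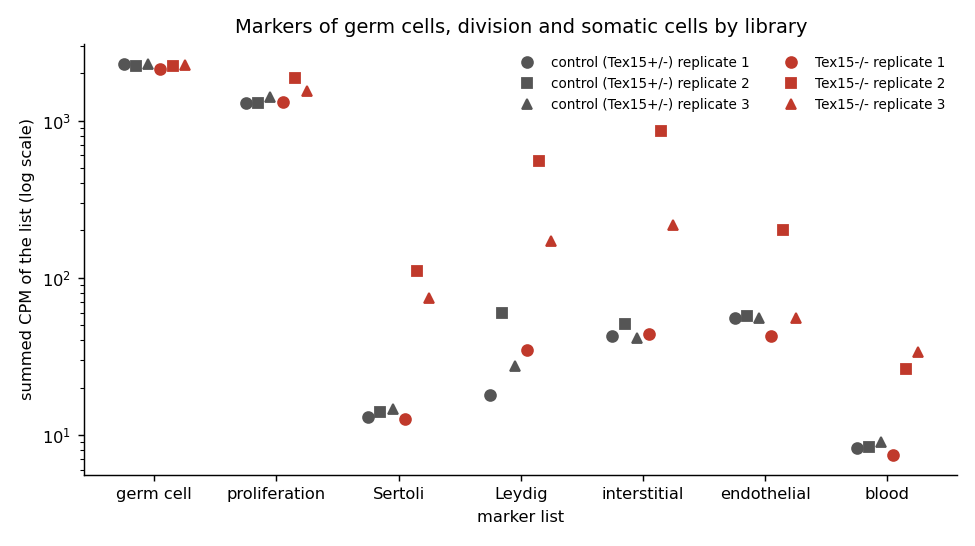
Summed CPM (log axis) of the germ cell, somatic, blood and proliferation gene lists in each of the 6 libraries, with 1 point per library. The somatic lists of knockout libraries 2 and 3 lie above the controls for Sertoli, Leydig and interstitial cells and blood, while knockout library 1 lies among or near the controls.

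To compare the level of one gene with that of another, counts were divided by the exonic length of each gene and scaled to one common sum per library (TPM). By this measure *Kdm1b* (ENSMUSG00000038080, chr13:47043499-47085279, plus strand) was the most abundant member in control gonocytes, at 67.9, 71.4 and 54.8 TPM. It ranked between 92 and 123 among the protein-coding genes of a control library, of which 18197 to 18619 were detected. *Dnmt3l* (ENSMUSG00000000730, chr10:78041947-78063622, plus strand) came next with 33.6, 32.7 and 33.6 TPM and ranks of 212 to 256. The levels of *Kdm1b* and *Dnmt3l* did not overlap in the 3 controls, and both lay above all other members. By exonic length the H3K4 demethylase and the cofactor without catalytic activity thus stood above the catalytic methyltransferases, an order that did not hold for *Dnmt3l* with coding length.

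*Dnmt1* (ENSMUSG00000004099, chr9:20907209-20959888, minus strand), the maintenance enzyme, reached 15.0, 14.9 and 13.5 TPM and ranked between 622 and 765. *Dnmt3a* (ENSMUSG00000020661, chr12:3806007-3914443, plus strand) stood at 13.2, 14.3 and 13.4 TPM, with ranks from 734 to 773. The ranges of *Dnmt1* and *Dnmt3a* overlapped, so their order was not resolved. *Dnmt3c*, at 5.41, 5.33 and 4.82 TPM and ranks of 2169 to 2645, lay below *Dnmt3a* and above the remaining members in every control.

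The last 5 genes had the lowest TPM of the members by exonic length. *Tet3* (ENSMUSG00000034832, chr6:83362373-83459084, minus strand) had 1.83 ± 0.352 TPM (SD, n = 3), *Uhrf1* (ENSMUSG00000001228, chr17:56303321-56323486, plus strand) 1.83 ± 0.136 TPM and *Dnmt3b* 1.56 ± 0.342 TPM. *Tet2* (ENSMUSG00000040943, chr3:133463679-133545139, minus strand) followed with 1.44 ± 0.234 TPM. Each of these 4 overlapped its neighbour in the order. *Tet1* (ENSMUSG00000047146, chr10:62804570-62908996, minus strand) was lowest, at 0.430, 0.643 and 0.606 TPM, and did not overlap *Tet2*. The ranks of these 5 genes ran from 5252 for *Tet3* to 11605 for *Tet1*, among 18197 to 18619 protein-coding genes detected.

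**Figure D2:**
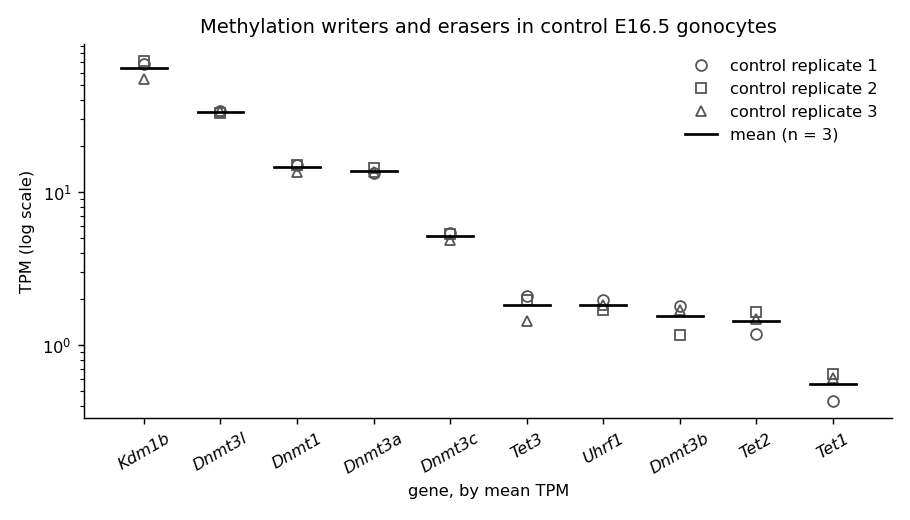
Level of the 10 genes in the 3 control libraries in TPM by exonic length (log axis), with 1 point per library and the mean. *Kdm1b* and *Dnmt3l* stand above the others, *Dnmt1* and *Dnmt3a* overlap near 14 TPM, and *Tet1* is lowest at 0.560 TPM on average.

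The order depended in part on the length given to each gene, because the annotated transcripts of *Dnmt3a* together cover 16642 exonic bases but its longest transcript has 9685 and its longest coding sequence 2724. With the longest transcript as the length, *Dnmt3a* averaged 22.9 TPM against 17.8 TPM for *Dnmt1*, and the 2 ranges no longer overlapped. With the coding length, *Dnmt3a* (435 TPM) had a higher mean than *Dnmt3l* (413 TPM) and their ranges overlapped, as did *Tet3* (29.7 TPM) and *Dnmt3c* (27.2 TPM). The counts set against coding length still came from all exons, untranslated ones included, and genes without a coding sequence were left out. Coding length therefore raises genes with long untranslated exons, such as *Dnmt3a*, relative to *Dnmt3c*, annotated with 2220 coding of 2223 exonic bases. *Kdm1b* kept the first place and *Tet1* the last under all 3 lengths. TPM values by exonic length were small throughout because genes under 300 bases took 87.7% to 92.1% of the TPM total in each library with 12.6% to 17.1% of the counts. Genotypes were therefore tested in CPM scaled by TMM factors, and TPM was used mainly for comparing genes within a library. Where both genotypes are also given in TPM, that scale was shifted between them. In TPM, every knockout lay below every control for 15.0% of all genes and above for 2.05%.

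Within the de novo group the transcripts were unequally divided. In controls *Dnmt3l* made up 62.1 ± 0.824% of the summed TPM of the 4 genes (SD, n = 3), *Dnmt3a* 25.4 ± 1.16%, *Dnmt3c* 9.65 ± 0.573% and *Dnmt3b* 2.90 ± 0.625%. These shares depended on the length, and with coding length *Dnmt3a* held 48.9 ± 1.55% and *Dnmt3l* 46.3 ± 1.16% in controls. *Dnmt3c* exceeded its parent gene *Dnmt3b* in all 3 controls, with the reservation on shared reads given above. The size of this lead depended on length too. The annotation gives *Dnmt3c* 1 transcript of 2223 bases, 2220 of them coding, against 5106 exonic and 2580 coding bases for *Dnmt3b*. With coding length *Dnmt3c* held 3.04 ± 0.184% and *Dnmt3b* 1.81 ± 0.412% in controls. In the knockouts *Dnmt3l* held 63.3 ± 2.70%, *Dnmt3a* 25.0 ± 1.14% and *Dnmt3b* 3.19 ± 0.367%. The share of *Dnmt3c* was 10.2%, 7.61% and 7.68% in knockouts 1, 2 and 3, against 9.998%, 9.96% and 8.99% in controls. *Dnmt1* held 88.8 ± 0.873% of the maintenance pair in controls and 86.3 ± 1.83% in knockouts. Every knockout (87.6%, 84.2% and 87.1%) lay below every control (88.4%, 89.8% and 88.2%), also with the longest transcript or the coding length. No test was attached to this share. Among the TET genes, *Tet3* held 47.8 ± 8.07%, *Tet2* 37.6 ± 5.24% and *Tet1* 14.6 ± 2.83% in controls, against 46.1 ± 1.53%, 40.5 ± 2.20% and 13.4 ± 1.24% in knockouts.

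The balance of de novo to maintenance transcripts was taken within each library as the ratio of summed TPM, which library size cannot move. *Dnmt3a*, *Dnmt3b*, *Dnmt3c* and *Dnmt3l* over *Dnmt1* and *Uhrf1* gave ratios of 3.18, 3.23 and 3.49 in controls and of 3.07, 2.98 and 3.48 in knockouts. The groups overlapped, with means of 3.30 ± 0.165 and 3.18 ± 0.263 (SD, n = 3). Without the cofactors, *Dnmt3a*, *Dnmt3b* and *Dnmt3c* over *Dnmt1* gave 1.36, 1.40 and 1.47 in controls and 1.39, 1.24 and 1.40 in knockouts. The size of this ratio depended on the length given to the genes, with control means of 1.41 by exonic length, 2.31 in CPM and 4.18 by coding length. Without *Dnmt3c* the control mean was 1.05 by exonic length and 3.94 by coding length. The de novo to maintenance ratio was 6.75 in controls and 6.47 in knockouts by coding length. The TET genes over the de novo group gave ratios of 0.0687, 0.0795 and 0.0659 in controls and of 0.0847, 0.0723 and 0.0758 in knockouts. These too overlapped between the genotypes, and in CPM their means were 0.183 and 0.201.

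**Figure D3:**
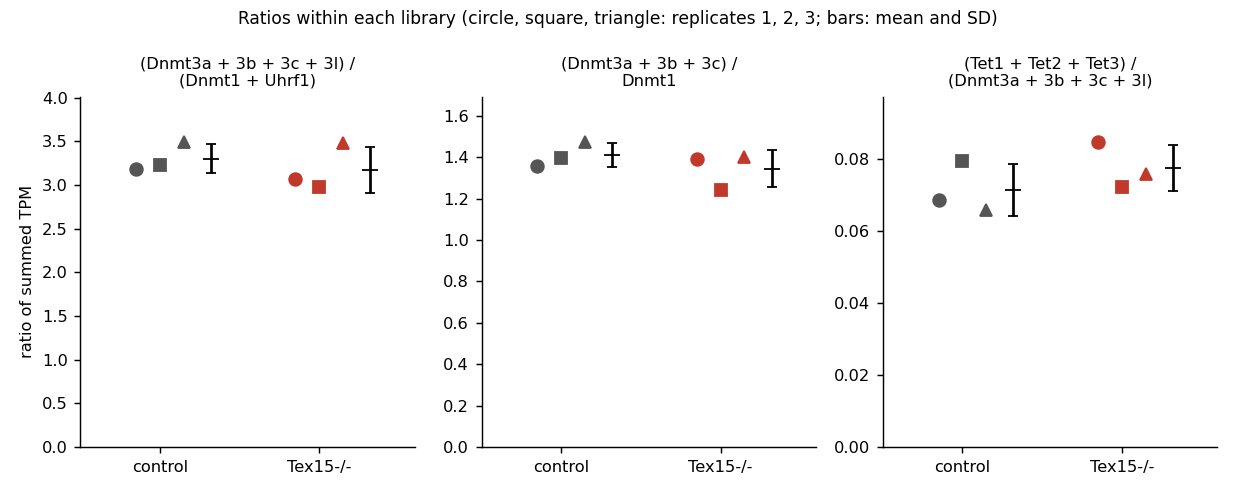
Ratios of summed TPM in each library, with 1 point per library and the mean and SD of each group beside the points. The de novo to maintenance ratio lies between 2.98 and 3.49 over all 6 libraries, and control and knockout libraries overlap in all 3 panels.

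The comparison of control with Tex15-/- gonocytes asked whether loss of TEX15 was accompanied by a change in the transcripts of the methylation machinery. None of the 10 members was called at an adjusted p under 0.01 in edgeR's quasi-likelihood test, against 0 of 16311 genes tested (0%), and 0 members passed 0.05, against 0.0184% of genes. At an unadjusted p under 0.05 the count was 1 member, *Tet2*, against 9.20% of all genes, of which 6.05% were higher in the knockouts, as *Tet2* was, and 3.15% lower. DESeq2 called 0 members and had 2, *Tet2* and *Kdm1b*, at an unadjusted p under 0.05, where it called 14 of 42446 genes and had 4.02% of them at that level. That share covers every gene with any count, including those that the edgeR filter removed, and is not comparable with the 9.20%. The fitted log2 fold change was above 0 for 9 members and below 0 for *Dnmt3c*, with a median of 0.15, whereas 50.0% of all genes lay above 0. In 2 of 10 members, *Uhrf1* and *Tet2*, every knockout library lay above every control, and in 0 members every one lay below, against 6.50% and 6.68% of all genes. Knockout library 2, which had the highest summed somatic and blood markers, was the highest of all libraries for 6 of the 10 members. The share of all genes highest in that library is not given here, so this count is no result about the members. The part of the somatic difference in the members' values was not tested.

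**Figure D4:**
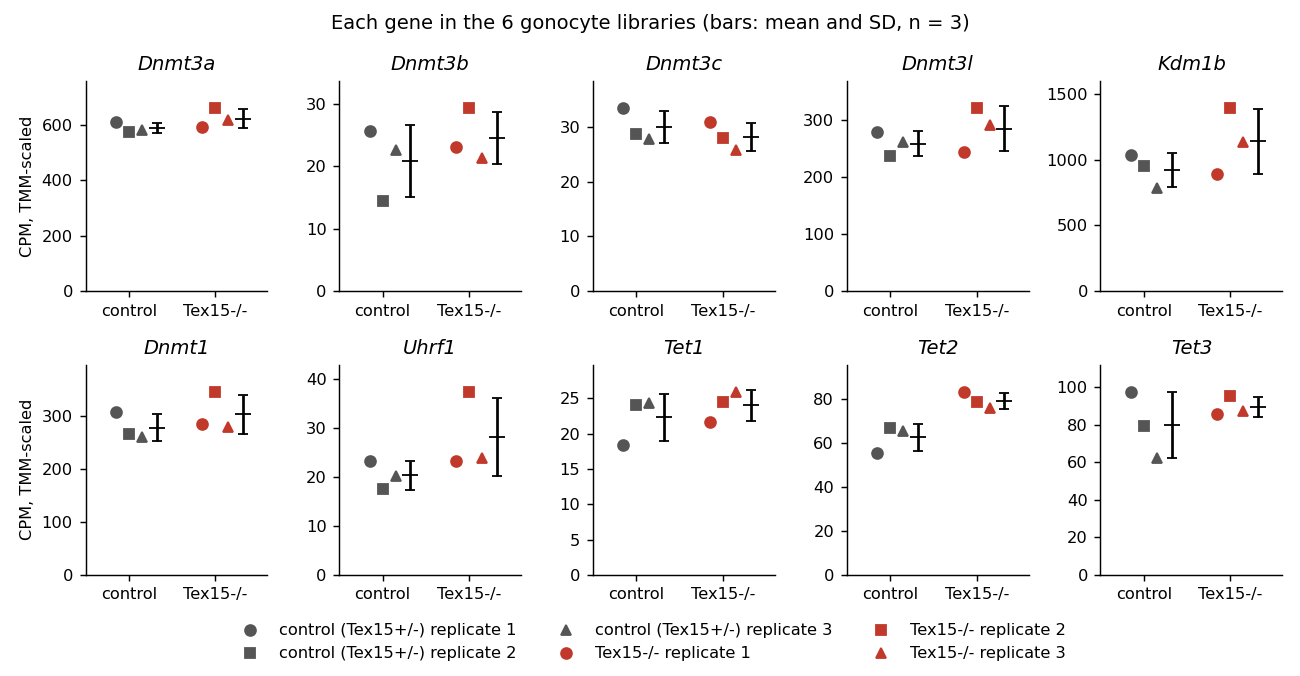
TMM-scaled CPM of each gene in the 6 libraries, with the mean and SD of each group of 3 beside the points and each axis starting at 0. *Tet2* and, narrowly, *Uhrf1* separate the groups, and the remaining 8 genes overlap.

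*Dnmt3a*, the most abundant catalytic gene of the de novo group, varied least of the members among the controls in CPM, with a coefficient of variation of 3.22%. In TPM this did not hold, and *Dnmt3l* varied less. It stood at 611, 575 and 581.5 CPM in controls and at 591, 660.1 and 619 CPM in knockouts, which overlapped. The log2 fold change was 0.08 (SE 0.0854) with a 95% interval from -0.11 to 0.27, that is a fold of 0.929 to 1.21. *Dnmt3l* stood at 279, 237 and 262 CPM in controls and at 244, 321 and 292 CPM in knockouts. Its knockout library 1 lay among the controls and knockout libraries 2 and 3 lay above them, and the log2 fold change was 0.14 (SE 0.117, 95% interval -0.12 to 0.40).

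*Dnmt3c* stood at 33.4, 28.7 and 27.9 CPM in controls and at 30.9, 28.0 and 25.7 CPM in knockouts, with a log2 fold change of -0.09 (SE 0.162, 95% interval -0.45 to 0.27). The groups overlapped in CPM, but in TPM every knockout (3.77 to 4.77) lay below every control (4.82 to 5.41). In TPM, 15.0% of all genes had every knockout below every control and 2.05% had every knockout above. The summed de novo group likewise differed by -5.87% in TPM and by 6.97% in CPM. *Dnmt3b* was the most scattered de novo gene, at 25.6, 14.4 and 22.5 CPM in controls and 23.0, 29.3 and 21.3 CPM in knockouts. Its counts were 72 to 161 per library, and its log2 fold change of 0.23 (SE 0.238) had an interval from -0.29 to 0.76, which spans folds of 0.816 to 1.69. The summed CPM of the de novo group ranged from 855 to 949 in controls and from 889 to 1038 in knockouts.

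Of the maintenance pair, *Dnmt1* stood at 308, 266 and 259.9 CPM in controls and at 285, 345 and 278 CPM in knockouts. Only knockout library 2 lay above the controls, and the log2 fold change was 0.12 (SE 0.113, 95% interval -0.12 to 0.37). *Uhrf1* stood at 23.23, 17.4 and 20.2 CPM in controls and at 23.25, 37.2 and 23.8 CPM in knockouts. The groups did not overlap, but knockout library 1 exceeded control library 1 by only 23.25 against 23.23 CPM, and with median-ratio size factors or in TPM they did overlap. Its log2 fold change of 0.47, the largest among the members, had an SE of 0.226, an interval from -0.03 to 0.97 and an adjusted p of 0.564 in edgeR. The exact two-sided permutation test gave p = 0.1, the smallest value that 3 against 3 libraries allow.

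*Uhrf1* is known to be expressed in dividing cells, and its highest value was in knockout library 2. The summed proliferation genes were highest in the same library, as was each gene of the list except *Bub1*, *Ccnb1* and *Mcm7*. As the share of all genes highest in that library is not given here, this is no result about the list. The 15 proliferation genes summed to 1288 to 1405 CPM in controls and to 1317, 1879.6 and 1554 CPM in knockouts 1, 2 and 3. *Mki67*, a marker of cycling cells, stood at 39.3, 31.9 and 37.8 CPM in controls and at 32.7, 242 and 85.1 CPM in knockouts. *Bub1* in knockout library 2, at 170.2 CPM, lay below every control (172 to 189 CPM). The part of these transcripts in the level of *Uhrf1* was not tested.

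*Tet2* was the member in which the genotypes were most clearly apart. It stood at 55.5, 67.2 and 65.4 CPM in controls and at 83.4, 78.7 and 76.1 CPM in knockouts, so that the lowest knockout lay above the highest control. Its highest value was in knockout library 1, in which somatic markers were at the control level. The part of somatic transcripts in the level of *Tet2* was not tested. The log2 fold change was 0.34 (SE 0.121, 95% interval 0.07 to 0.61), with an adjusted p of 0.471 in edgeR and rank 581 by p among all genes tested. The exact permutation test gave p = 0.1. The separation held with TMM factors, total counts and median-ratio factors, but in TPM the controls (1.18 to 1.65) and knockouts (1.40 to 1.70) overlapped.

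The other TET genes did not separate the groups. *Tet1* stood at 18.4, 24.1 and 24.4 CPM in controls and at 21.6, 24.5 and 25.9 CPM in knockouts, a log2 fold change of 0.11 (SE 0.189, 95% interval -0.31 to 0.53). *Tet3* stood at 97.3, 79.4 and 62.3 CPM in controls and at 85.8, 95.4 and 87.2 CPM in knockouts, a log2 fold change of 0.17 (SE 0.155, 95% interval -0.17 to 0.51). All 3 knockouts lay within the range of the controls for *Tet3*, which varied by 22.0% (coefficient of variation) among controls and by 5.82% among knockouts. The summed CPM of the 3 genes was 152 to 171 in controls and 189 to 199 in knockouts, while in TPM the sums overlapped at 3.53 to 4.25 and 3.58 to 4.21.

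*Kdm1b* stood at 1036, 950.1 and 783 CPM in controls and at 893, 1389 and 1133 CPM in knockouts. Knockout library 1 lay among the controls and knockout libraries 2 and 3 above them. Of the knockouts, library 1 also kept the most *Tex15*, at 469 CPM against 230.2 and 249 CPM. The part of this in the level of *Kdm1b* was not tested. The log2 fold change was 0.30 (SE 0.154, 95% interval -0.04 to 0.64), with an adjusted p of 0.580 in edgeR and p = 0.3 in the exact permutation test. With knockout library 1 left out, which leaves only the 2 knockout libraries with raised somatic markers (summed 1751 and 551 CPM, against 141 CPM in knockout library 1), *Kdm1b* had a log2 fold change of 0.47 with an adjusted p of 0.0299, the lowest of any member under any setting and still above 0.01. That setting called 388 genes. Of the 17520 genes tested under it, 1284 had an adjusted p under 0.05, and *Kdm1b* was the only member among them. An unadjusted p under 0.05 was then reached by 23.2% of all genes and by 4 members, *Dnmt3l*, *Uhrf1*, *Tet2* and *Kdm1b*.

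**Figure D5:**
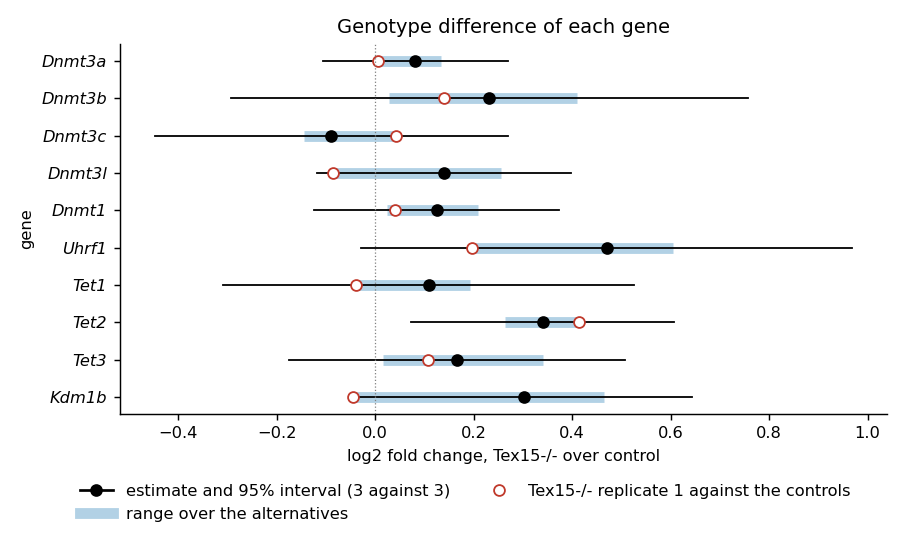
Fitted log2 fold change of Tex15-/- over control for each gene with its 95% interval from edgeR (filled), and the value from knockout library 1 alone against the 3 controls (open), over a shaded band for the range of values under the 14 alternatives. The intervals of 9 genes include 0, and *Tet2* is the exception, at 0.34 with an interval from 0.07 to 0.61.

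Set alone against the 3 controls, the knockout library without raised somatic markers gave log2 fold changes between -0.09 and 0.20 for the 9 members other than *Tet2*. That library also kept the most *Tex15* of the knockouts, at 469 CPM against 230.2 and 249 CPM. The part of the residual *Tex15* and of the somatic markers in these values was not tested. With that library alone the log2 fold change was -0.09 for *Dnmt3l*, -0.05 for *Kdm1b*, -0.04 for *Tet1* and 0.04 for *Dnmt3c*. Each had the opposite sign to the comparison of all libraries. A single knockout library gives no spread between knockouts by which to judge these signs. For *Tet2* the log2 fold change was 0.41. In this comparison 18 genes and 0 members were called, and the single knockout library was assumed to vary as the controls did.

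Genes that act beside the members were examined in 8 lists of known function, 84 genes in addition to *Tex15* and the members, of which 82 could be tested. None was called in edgeR, against 0% of all genes, while 8 had an unadjusted p under 0.05 with a higher level in the knockouts and 3 with a lower one, against 6.05% and 3.15% of all genes. Their median log2 fold change was 0.04. The families of methyl-CpG readers, not all of whose members need bind the mark, gave 0 of 9 genes with an unadjusted p under 0.05 and a median of -0.05. *Mbd3*, of the NuRD complex, averaged 62.5 CPM in controls and 71.2 CPM in knockouts, and *Zbtb38* 144 and 157 CPM. Of 13 genes of base excision repair, the pathway that replaces oxidised methylcytosine, and of the GADD45 family, 0 reached that level, with a median of 0.12. *Apex1*, the abasic site nuclease, averaged 28.3 and 34.6 CPM and *Parp1* 698 and 748 CPM. Methyl donor synthesis gave 0 of 10 tested genes and a median of -0.09. *Mtr*, methionine synthase, averaged 748 CPM in controls and 705 CPM in knockouts, and *Shmt1* 75.3 and 77.0 CPM. *Bhmt* and *Gnmt* did not pass the filter.

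Enzymes of the histone marks that DNMT3 proteins read gave 1 of 13 genes with an unadjusted p under 0.05, *Kdm2b*, and a median of -0.01. *Kdm1a*, the paralogue of *Kdm1b*, averaged 486 CPM in controls and 547 CPM in knockouts, and per length *Kdm1b* exceeded it in controls, at a mean of 64.7 against 36.1 TPM. *Cxxc1*, a subunit of an H3K4 methyltransferase, averaged 205 and 218 CPM. Among 10 genes of DNMT recruitment and protection, 2 genes, *Trim28* and *Zfp57*, had an unadjusted p under 0.05 with a fold change above 0 and 3, *Dppa3*, *Hells* and *Atrx*, with one below 0, against 6.05% and 3.15% of all genes, and their adjusted p ranged from 0.460 to 0.521 in edgeR. *Zfp57* stood at 1.84, 3.01 and 2.75 CPM in controls and at 3.21, 15.4 and 5.14 CPM in knockouts, with its highest value in knockout library 2. *Trim28*, the corepressor of KRAB zinc finger proteins, stood at 283, 223 and 262 CPM in controls and at 311, 302 and 316 CPM in knockouts. *Hells* stood at 175, 209 and 193 CPM in controls and at 158, 151 and 169 CPM in knockouts. *Atrx* stood at 277, 272 and 305 CPM in controls and at 252, 183 and 187 CPM in knockouts. Every knockout lay above every control in 2 of the 10 genes, *Trim28* and *Zfp57*, and below in 2, *Hells* and *Atrx*. Of all genes, 6.50% and 6.68% did so. *Dppa3*, whose protein restrains UHRF1, stood at 55.3, 43.3 and 61.6 CPM in controls and at 44.9, 18.4 and 39.8 CPM in knockouts. The lowest *Dppa3* value was in knockout library 2, the library with the highest *Uhrf1* and the highest somatic markers, and the part of the latter was not tested.

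The 5 TET partners and cofactor enzymes had a median log2 fold change of 0.52, and 2 of them, *Cxxc5* and *Idh2*, had an unadjusted p under 0.05. *Ogt*, the TET-binding glycosyltransferase, averaged 58.0 CPM in controls and 61.2 CPM in knockouts. *Idh1* stood at 35.9, 31.1 and 32.6 CPM in controls and at 28.7, 70.5 and 43.4 CPM in knockouts 1, 2 and 3. *Cxxc5* stood at 10.7, 7.82 and 7.33 CPM in controls and at 9.42, 22.7 and 12.7 CPM in knockouts. *Idh2* had 5.53, 5.21 and 7.70 CPM in controls and 3.21, 60.1 and 18.6 CPM in knockouts. In these 3 genes the highest values were in knockout libraries 2 and 3, which also had high somatic markers, and knockout library 1 lay within or below the controls. The part of the somatic transcripts in the list's median was not tested. Of the 8 genes of piRNA-directed methylation, *Tex15* alone had an unadjusted p under 0.05, and the median was 0.02. *Mael*, a piRNA pathway gene of the germ line, averaged 661 and 675 CPM. The proliferation list had 3 of 15 genes at an unadjusted p under 0.05, all with a fold change above 0, against 6.05% of all genes, and a median of 0.25. Its summed level was above the controls in knockout libraries 2 and 3 and within their range in knockout library 1. Its most abundant genes by TPM were *Mcm3*, at 181 and 219 CPM, and *Bub1*, at 181 and 179 CPM.

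The genes whose log2 CPM most resembled that of *Dnmt3l* across the 6 libraries were *Nop53*, *Nup133* and *Noc4l*, with Pearson correlations of 0.997, 0.993 and 0.992 among 9219 genes compared. Of the members, *Dnmt3a* came nearest, with 0.943 and place 121, followed by *Uhrf1* with 0.859 and *Kdm1b* with 0.817. *Dnmt3c* gave -0.28, the only negative value among the members. These correlations describe 6 libraries that share their genotype groups and the somatic difference of knockout libraries 2 and 3, and no test was attached to them.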

How the data were processed

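RNA-seq had been made from FACS-purified E16.5 gonocytes (3 Tex15+/- and 3 Tex15-/- libraries) with RiboGone and a SMARTer stranded kit and sequenced as 75 bp read pairs. The authors aligned the reads to GRCm38 with HISAT2, trimming 3 bases, and counted them with HTSeq 0.11.1; the deposited values are raw counts per Ensembl gene. The strand setting and annotation release used for counting were not given in the sources used here. Rows for reads without a gene (61.3% to 67.3% of each table) were left out. Of the identifiers, 54809 (99.9%) matched a symbol in GENCODE M21 for GRCm38, which also gave lengths, positions and transcript sequences. The other assays of the series were not analysed here.

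The comparison of genotypes was fitted by edgeR 4.0.16 in R 4.3.3 (TMM factors, filterByExpr at 10 counts and a total of 15, quasi-likelihood test, Benjamini-Hochberg adjustment over 16311 genes), and an adjusted p under 0.01 was a call. Single genes were also compared by an exact two-sided permutation test on log2 CPM. Intervals are 95% intervals of the fit. TPM was computed from the exonic length of each gene. For TPM by coding length the same counts from all exons were divided by coding bases alone. Shared 75-base windows were counted on one strand. Python 3.11.15 with pandas 2.3.3, scipy 1.17.1 and biopython 1.88 was used.

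Alternatives were DESeq2 1.42.0, other scalings, filters, gene lengths and thresholds, the replicate number as a block, and leaving out each library. Chosen after seeing the data were edgeR's newer quasi-likelihood estimate, ratios by coding length and knockout library 1 alone against the controls. The text names all 10 members, *Tex15*, from each other list the 2 genes with the highest control TPM and any whose adjusted p was under 0.05, and the 3 genes most correlated with *Dnmt3l* at an average of at least 10 CPM. *Kdm2b*, *Zfp57*, *Hells*, *Atrx*, *Cxxc5*, *Idh2*, *Mki67*, *Ccnb1*, *Mcm7* and the marker genes named were singled out after their values were seen. The members and lists were chosen with earlier results of these data known.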

Additional observations from a re-analysis of the deposited data

How the results depend on the processing

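With 3 libraries a group, the intervals of the members reached from a fold of 0.733 for *Dnmt3c* to 1.96 for *Uhrf1*. Changes inside them could not be resolved with these libraries and the spread between them. No member was called under any of the 14 alternatives. The number of genes called over the whole table, 0 in the comparison reported, was 488 without a filter, 1 with at least 10 counts in every library, 14 with DESeq2, 2 with edgeR's newer estimate, 3 at an adjusted p under 0.05, 18 with knockout library 1 alone against the controls, and 0 to 388 with 1 library left out (388 without knockout library 1, 5 without knockout library 2 and 1 without control library 1). Genes of the other lists were called without a filter (2, *Idh2* and *Mki67*) and with 1 library left out (0 to 3, the third being *Atrx*). Signs turned for *Tet1* without control library 1 (-0.0084, within a range up to 0.19 when 1 library was left out) and, with knockout library 1 alone, for *Tet1* (-0.040), *Dnmt3c* (0.043), *Dnmt3l* (-0.086) and *Kdm1b* (-0.046). The causes were not tested.

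The de novo to maintenance ratio was 4.19 in controls and 4.05 in knockouts with the longest transcript as the length, 2.98 and 2.91 without *Dnmt3c*, 6.75 and 6.47 with coding length, 6.55 and 6.29 with coding length and without *Dnmt3c*, and 3.03 in controls in CPM. The ratio of *Dnmt3a*, *Dnmt3b* and *Dnmt3c* to *Dnmt1* was 1.68 and 1.61 with the longest transcript, 2.31 and 2.25 in CPM, 1.05 and 1.03 without *Dnmt3c*, 4.18 and 4.05 with coding length, and 3.94 and 3.85 with coding length and without *Dnmt3c*. The ratio of TET to de novo genes was 0.183 and 0.201 in CPM and 0.0790 and 0.0849 without *Dnmt3c*. These shifts follow from the length or gene set used, and the genotypes overlapped in every case. With the replicate number as a block, 0 genes and 0 members were called. Libraries with the same number did not deviate together (correlations of -0.143, -0.043 and -0.0075), so the numbers were not taken to pair them.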
